A study of Mus musculus with 10 samples.

Results

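The genes described here are 39 genes of the lysosome, 29 that encode soluble hydrolases, their cofactors and related proteins and 10 that encode membrane proteins. They were chosen by name, and all 39 were found among the 16936 protein-coding genes measured. RNA was sequenced from macrophages that had been derived from mouse bone marrow over 7 days with the cytokine GM-CSF at 50 ng/mL. Of the 10 samples, 5 were treated with PLG for 24 h, which the series' design text gives as human plasminogen, the circulating precursor of the protease plasmin, and 5 were left untreated. The comparison addresses what PLG changes in these cells, and the series' title places it in work on macrophage activation through the receptor TLR2. No label names a mock preparation or ties a replicate to a mouse or culture, so p-values reflect only how these samples vary among themselves, and that variation may be technical.

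Lysosomes are acidic organelles in which hydrolases take apart what a cell has engulfed or no longer needs. Glycosidases and sulfatases remove sugars and sulfate groups from the ends of glycan chains, lipid enzymes cleave lipids, and small cofactor proteins lift lipids out of membranes for them. Membrane proteins line the organelle and carry the products out. Loss of many of these enzymes causes storage diseases in humans, and macrophages, which clear dying cells and debris, are among the cells that fill with undigested material.

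Most of these genes had lower levels in macrophages treated with PLG. Of the 39 genes, 33 fell, 1 rose and 5 did not pass the test, with a median log2 fold change of -0.63. Over all 9997 genes tested, 60.4% passed, 31.3% as lower and 29.1% as higher, and the median was -0.02. Here a gene passed at a limma adjusted p under 0.05, and a log2 fold change is the PLG mean minus the untreated mean of log2(FPKM + 1), a scale that makes changes at low levels look smaller. FPKM scales reads by gene length and by the reads of a sample, so that levels are relative to all reads of a sample and fewer cells of a type cannot be told apart from less RNA per cell. The values of the PLG and untreated samples did not overlap for 33 of the 39 genes, while this held for 47.2% of all genes tested. Of the 39 genes 9 passed as at least 2-fold lower on this scale and 0 as at least 2-fold higher, against 5.67% and 8.35% of all genes tested. All 39 genes passed the filter on low values, 38 of them with at least 1 FPKM in every sample. The exception was Sgsh, which lay below that level in PLG 3 and PLG 5.

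**Figure D1:**
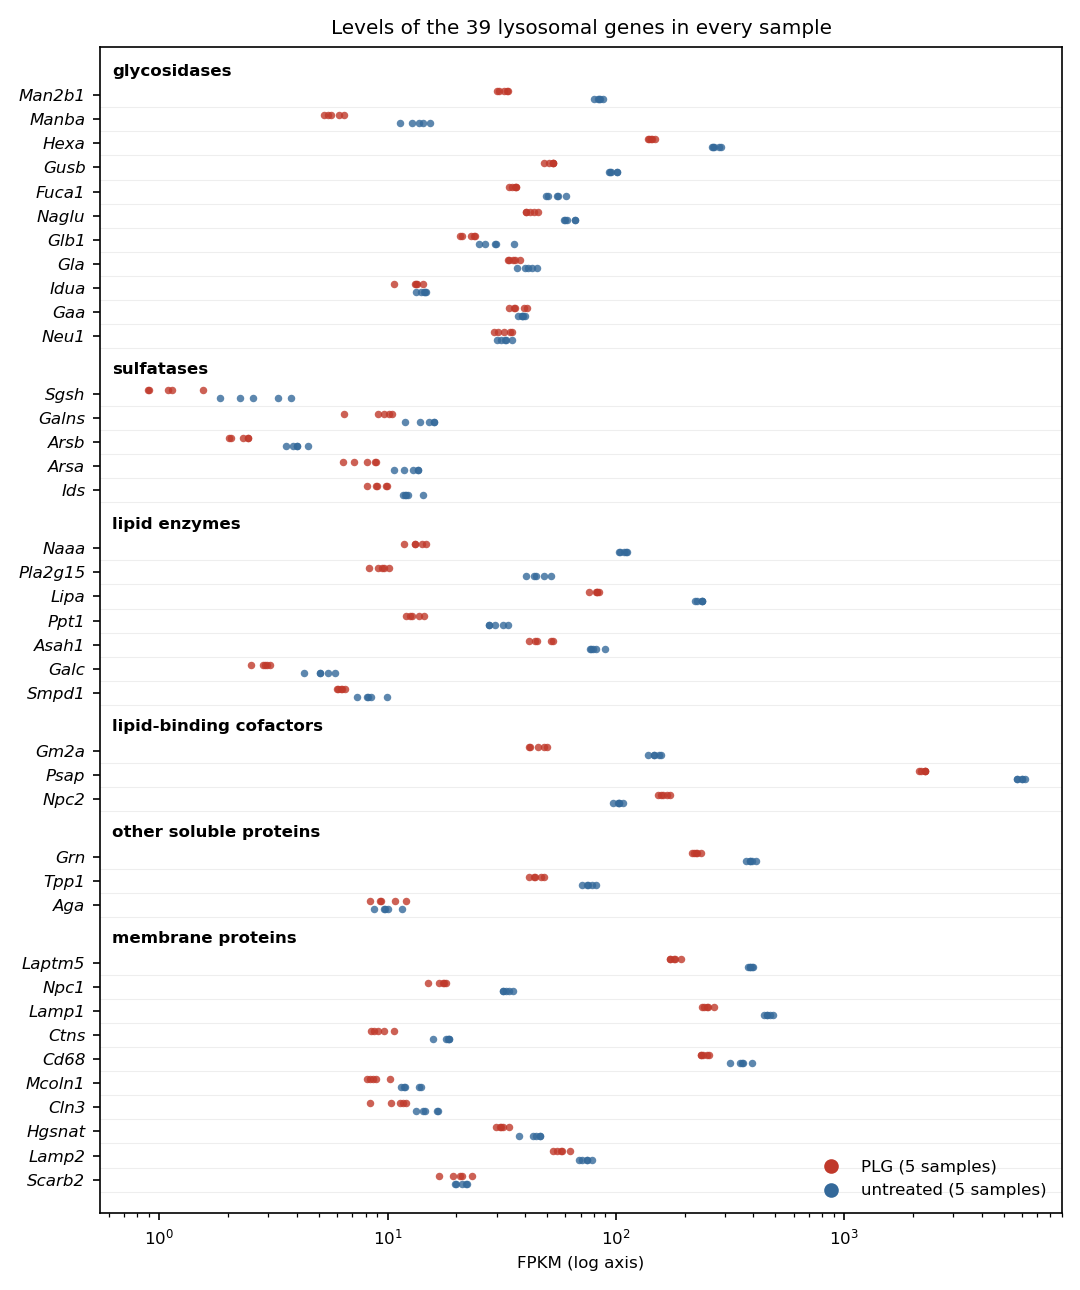
FPKM on a log axis for each of the 39 genes in every sample, by class, with the 5 PLG samples in red above the 5 untreated samples in blue. Most genes lie further left with PLG, Npc2 lies further right, and the groups overlap for Neu1, Gaa, Gla, Idua, Aga and Scarb2.

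Taken by class, 8 of 11 glycosidase genes fell, 5 of 5 sulfatase genes, 7 of 7 lipid enzyme genes, 2 of 3 genes of lipid-binding cofactors, 2 of 3 other soluble proteins and 9 of 10 membrane protein genes. The median log2 fold change was -1.14 among lipid enzymes, -0.62 among sulfatases, -0.55 among glycosidases and -0.50 among membrane proteins. Genes at high and at low levels were both among those that fell: 9 of the 10 genes with over 100 FPKM in untreated samples did, and 4 of the 5 under 10 FPKM. The summed FPKM of the 39 genes was 4089 to 4279 in PLG samples and 9076 to 9752 in untreated samples, or 1.75% to 1.9% and 4.16% to 4.5% of the summed FPKM of the table without 3 repeat-like gene models. Psap made up more than any other gene of this sum, and the other 38 genes together gave 1928 to 2023 FPKM with PLG, against 3349 to 3565 FPKM in untreated samples.

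**Figure D2:**
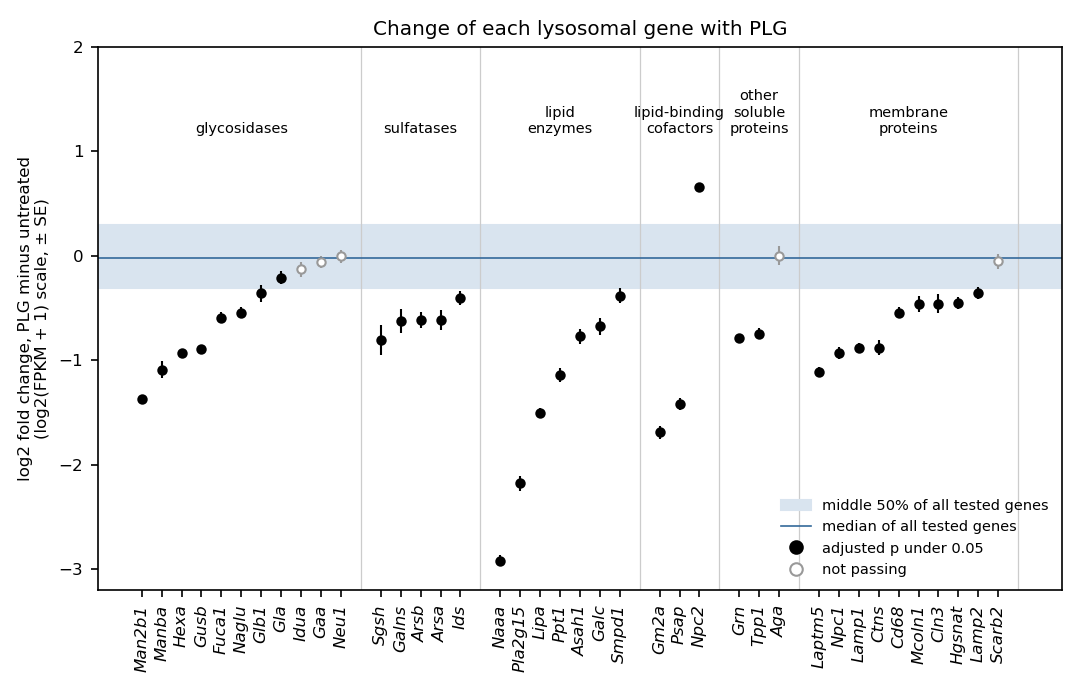
Log2 fold change of each gene, PLG minus untreated, with its standard error, on the log2(FPKM + 1) scale. Filled points passed at a limma adjusted p under 0.05, open points did not, and the band holds the middle 50% of all tested genes, from -0.31 to 0.29. Naaa and Pla2g15 lie lowest and Npc2 is the 1 point above the band.

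Many lysosomal promoters carry an E-box within a longer element that the transcription factor TFEB and its relatives bind, known mainly from human cells, and the promoters are shown here for that reason. RefSeq windows on GRCm38.p6, from 250 bases before to 50 bases after a gene's start, were at hand for 34 of the 39 genes. The motif TCACGTG was searched on both strands; each match also holds the shorter E-box CACGTG, and matches on both strands that overlap in the palindrome TCACGTGA were counted as 1 site. It occurred in a window of 9 of these 34 genes, 26.5%, against 7.4% of the 8072 tested genes with a window. Of all 27025 genes with a window, 4.29% had a match. Counted by window and not by gene, 3.77% of all 32851 windows had a match. The 9 genes were Gaa, Gla, Glb1, Naglu, Sgsh, Arsa, Lamp1, Mcoln1 and Cln3, of which 8 fell and Gaa did not pass. Cln3 counts only through a further window inside the gene (chr7:126583187-126583486). The window at its upstream start (chr7:126585768-126586067) holds no match. The median log2 fold change of the 9 genes was -0.46, and that of the 25 genes without a match was -0.79. A match describes the letters only, and binding was not measured. The whole windows are given for the 2 genes among the 9 whose values are listed in every sample below, Lamp1 (chr8:13158911-13159210, plus strand) and Sgsh (chr11:119355461-119355760, minus strand), 5′ to 3′ along the gene with each match in capitals.
Lamp1: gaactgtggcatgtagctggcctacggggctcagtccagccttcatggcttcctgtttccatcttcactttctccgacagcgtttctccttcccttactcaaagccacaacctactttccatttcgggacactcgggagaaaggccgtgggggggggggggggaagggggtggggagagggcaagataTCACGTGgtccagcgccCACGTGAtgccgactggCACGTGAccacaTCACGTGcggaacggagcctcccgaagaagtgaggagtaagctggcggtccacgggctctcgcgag
Sgsh: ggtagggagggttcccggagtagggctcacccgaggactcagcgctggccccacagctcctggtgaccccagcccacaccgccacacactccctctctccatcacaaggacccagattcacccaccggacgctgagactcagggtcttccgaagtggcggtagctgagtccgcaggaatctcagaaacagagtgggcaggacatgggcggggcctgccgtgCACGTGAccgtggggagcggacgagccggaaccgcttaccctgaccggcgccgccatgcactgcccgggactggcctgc

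The sites of the other 7 genes are shown with 10 bases on each side, since they let the letters around the match be compared, again 5′ to 3′ along the gene with the match in capitals. Cln3, Mcoln1 and Gla each held 2 sites and Lamp1 held 4.
Gla (chrX:134601216-134601243, minus strand): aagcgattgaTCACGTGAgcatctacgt
Gla (chrX:134601183-134601210, minus strand): gagatctcggTCACGTGAgcaactctcg
Cln3 (chr7:126583341-126583368, minus strand): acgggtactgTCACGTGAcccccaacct
Cln3 (chr7:126583369-126583395, minus strand): aaccctcaagCACGTGAtggaaggctc
Mcoln1 (chr8:3500463-3500490, plus strand): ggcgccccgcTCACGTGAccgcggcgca
Mcoln1 (chr8:3500437-3500463, plus strand): gtcgcgcttgTCACGTGttcagttcag
Naglu (chr11:101070010-101070036, plus strand): aaccttcaggTCACGTGgcccgaggtc
Glb1 (chr9:114401019-114401045, plus strand): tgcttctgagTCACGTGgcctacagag
Gaa (chr11:119267812-119267838, plus strand): ttctgtgcgaTCACGTGtttgactctg
Arsa (chr15:89477425-89477451, minus strand): caactcagtgTCACGTGttgtctgctc

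Among the glycosidases, the 2 mannosidase genes fell furthest. Man2b1 (ENSMUSG00000005142.10, chromosome 8, 85083270 to 85098282), the lysosomal alpha-mannosidase of glycoprotein breakdown, was at 30.0, 30.9, 33.6, 33.3 and 32.2 FPKM in the PLG samples, against 83.6, 85.4, 80.5, 88.0 and 84.7 FPKM in the untreated samples. Every PLG sample lay below every untreated one, and the means of 32.0 ± 1.53 FPKM with PLG and 84.4 ± 2.72 FPKM in untreated samples (SD, n = 5 each, as for every mean given here) differed by -1.37 on the log2 scale, with an SE of 0.0453 and a limma adjusted p of 1.34e-11. Manba, the beta-mannosidase that takes off the last mannose of the chain, averaged 5.80 ± 0.461 FPKM with PLG and 13.5 ± 1.53 FPKM in untreated samples (log2 fold change -1.09).

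Hexa (ENSMUSG00000025232.8, chromosome 9, 59539540 to 59565109), the alpha subunit of the hexosaminidase that degrades GM2 ganglioside, was the most abundant glycosidase gene. It was at 140.1, 139, 142, 149 and 144 FPKM in the PLG samples, against 265, 268, 263, 282 and 288 FPKM in the untreated samples. The groups were far apart relative to their spread (log2 fold change -0.93, SE 0.0418, limma adjusted p = 2.75e-10). Exons of Tmem202 on the opposite strand cover 12.8% of its exon bases. Gusb, the beta-glucuronidase, fell by nearly as much, to 51.7 ± 2.17 FPKM with PLG, against 97.0 ± 3.93 FPKM in untreated samples. Fuca1, the alpha-fucosidase (log2 fold change -0.59), and Naglu, the N-acetylglucosaminidase of heparan sulfate breakdown (-0.55), fell with no overlap of the groups.

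The smallest falls among the glycosidases were those of Glb1, the beta-galactosidase, and Gla, the alpha-galactosidase that is deficient in Fabry disease. Glb1 averaged 22.6 ± 1.57 FPKM with PLG and 29.5 ± 4.09 FPKM in untreated samples (log2 fold change -0.36, limma adjusted p = 0.00207). Gla averaged 35.5 ± 1.74 FPKM with PLG and 41.2 ± 3.12 FPKM in untreated samples (log2 fold change -0.21, limma adjusted p = 0.00686), and PLG 3 lay above untreated 3. Neither passed when each sample was scaled to a common sum of FPKM (adjusted p = 0.0579 for Glb1 and 0.314 for Gla). Gaa, the alpha-glucosidase that degrades glycogen, was at 37.3 ± 2.79 FPKM with PLG and 38.8 ± 1.06 FPKM in untreated samples. Idua, the iduronidase, was at 13.0 ± 1.36 FPKM with PLG and 14.2 ± 0.548 FPKM in untreated samples. Neu1, the sialidase, was at 32.3 ± 2.49 FPKM with PLG and 32.4 ± 1.83 FPKM in untreated samples, and these 3 genes did not pass (limma adjusted p = 0.364 for Gaa, 0.133 for Idua and 0.938 for Neu1).

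All 5 sulfatase genes fell, although their levels were low. Sgsh (ENSMUSG00000005043.13, chromosome 11, 119343425 to 119355536), the sulfamidase of heparan sulfate breakdown, was at 1.13, 1.56, 0.893, 1.10 and 0.900 FPKM in the PLG samples, against 2.245, 1.84, 3.32, 3.76 and 2.56 FPKM in the untreated samples. The groups did not overlap, but the untreated samples spread widely, and the log2 fold change of -0.81 had an SE of 0.141 (limma adjusted p = 0.00022). Exons of Card14 on the opposite strand cover 21.6% of the exon bases of Sgsh in GENCODE M21. Reads of the 2 genes on these shared bases cannot be told apart if the counting ignored strand.

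Galns (ENSMUSG00000015027.11, chromosome 8, 122578242 to 122611463), the sulfatase of keratan sulfate and chondroitin sulfate, had the highest mean of the class over all 10 samples, although with PLG alone it and Ids were level. It was at 10.1, 10.5, 6.46, 9.10 and 9.63 FPKM in the PLG samples, against 15.2, 13.9, 11.9, 15.9 and 16.04 FPKM in the untreated samples. The highest PLG value, in PLG 2, lay below the lowest untreated value, in untreated 3 (log2 fold change -0.63, SE 0.115, limma adjusted p = 0.000333). Arsa, which takes sulfate off sulfatide, averaged 7.85 ± 1.08 FPKM with PLG and 12.5 ± 1.249 FPKM in untreated samples. Arsb, which acts on dermatan sulfate, averaged 2.25 ± 0.202 FPKM with PLG and 3.99 ± 0.316 FPKM in untreated samples. Ids, the iduronate sulfatase deficient in Hunter syndrome, averaged 9.16 ± 0.750 FPKM with PLG and 12.4 ± 1.04 FPKM in untreated samples. On the opposite strand, the noncoding gene C230037L18Rik covers 18.8% of the exon bases of Arsa, and Gm26527 covers 32.3% and Gm47210 7.7% of those of Arsb.

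The lipid enzymes held the largest changes of the 39 genes. Naaa (ENSMUSG00000029413.14, chromosome 5, 92257659 to 92278170), the acid amidase that degrades palmitoylethanolamide and related lipid amides, was at 13.1, 13.2, 11.8, 14.2 and 14.8 FPKM in the PLG samples, against 111, 108, 104, 104 and 112 FPKM in the untreated samples. The mean FPKM of untreated samples was 8.03 times that of PLG samples, and no untreated value came near the PLG values (log2 fold change -2.92, SE 0.0569, limma adjusted p = 9.52e-14). Its relative Asah1, the acid ceramidase, fell less, to 47.3 ± 5.03 FPKM with PLG, against 81.1 ± 5.34 FPKM in untreated samples (log2 fold change -0.77). By level, Naaa ranked 3054th among the genes of the table with PLG and 245th in untreated samples.

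Pla2g15, the lysosomal phospholipase of phospholipid turnover, was at 8.31 to 10.1 FPKM in the PLG samples and 40.5 to 51.7 FPKM in the untreated samples. Its untreated mean was 4.91 times its PLG mean (log2 fold change -2.18, SE 0.0701, limma adjusted p = 1.07e-11). Lipa (ENSMUSG00000024781.16, chromosome 19, 34492318 to 34527474), the acid lipase that frees cholesterol and fatty acids from lipoprotein lipids, was the most abundant enzyme gene of the class. It was at 76.4, 81.7, 82.6, 82.6 and 84.0 FPKM in the PLG samples, against 221, 238, 227, 238 and 239 FPKM in the untreated samples. More than 100 FPKM lay between the highest PLG and the lowest untreated value (log2 fold change -1.50, SE 0.0420, limma adjusted p = 2.96e-12).

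Ppt1, which removes fatty acids from modified proteins, averaged 13.1 ± 0.982 FPKM with PLG and 30.2 ± 2.64 FPKM in untreated samples (log2 fold change -1.14). Galc, the galactosylceramidase, averaged 2.86 ± 0.202 FPKM with PLG and 5.16 ± 0.577 FPKM in untreated samples (-0.67). Smpd1, the acid sphingomyelinase, had the smallest fall of the class, at 6.22 ± 0.191 FPKM with PLG and 8.43 ± 0.953 FPKM in untreated samples (-0.38, limma adjusted p = 0.000494).

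The 3 cofactor genes divided. Psap (ENSMUSG00000004207.14, chromosome 10, 60277627 to 60302597) encodes the precursor of the saposins, which present sphingolipids to their hydrolases. It was at 2161, 2265, 2132, 2259.6 and 2256 FPKM in the PLG samples, against 5696, 6006, 5727, 6187 and 6039.8 FPKM in the untreated samples. By mean FPKM it ranked 9th among all genes of the table with PLG and 3rd in untreated samples, and it fell with no overlap of the groups (log2 fold change -1.42, SE 0.0568, limma adjusted p = 8.65e-11).

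Gm2a (ENSMUSG00000000594.7, chromosome 11, 55098115 to 55113029), the activator that brings GM2 ganglioside to hexosaminidase, had the largest fall of the class. It was at 48.2, 41.7, 42.1, 45.5 and 50.0 FPKM in the PLG samples, against 154, 147, 139, 158 and 146 FPKM in the untreated samples. All PLG samples lay below all untreated samples (log2 fold change -1.69, SE 0.0585, limma adjusted p = 2.12e-11), in the same direction as Hexa, the enzyme subunit it serves.

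Npc2 (ENSMUSG00000021242.9, chromosome 12, 84754562 to 84773152), the soluble protein that carries cholesterol to the membrane protein NPC1 for export, was the 1 gene of the 39 that rose. It was at 157, 154, 173, 167 and 161 FPKM in the PLG samples, against 102, 103, 97.3, 107 and 103 FPKM in the untreated samples. The lowest PLG value lay well above the highest untreated value (log2 fold change 0.66, SE 0.0448, limma adjusted p = 2.04e-08). Npc1 fell to 17.0 ± 1.17 FPKM with PLG, against 33.3 ± 1.49 FPKM in untreated samples (log2 fold change -0.93). The ratio of Npc2 to Npc1 FPKM was 8.76 to 11.5 in the PLG samples and 2.93 to 3.2 in the untreated samples.

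**Figure D3:**
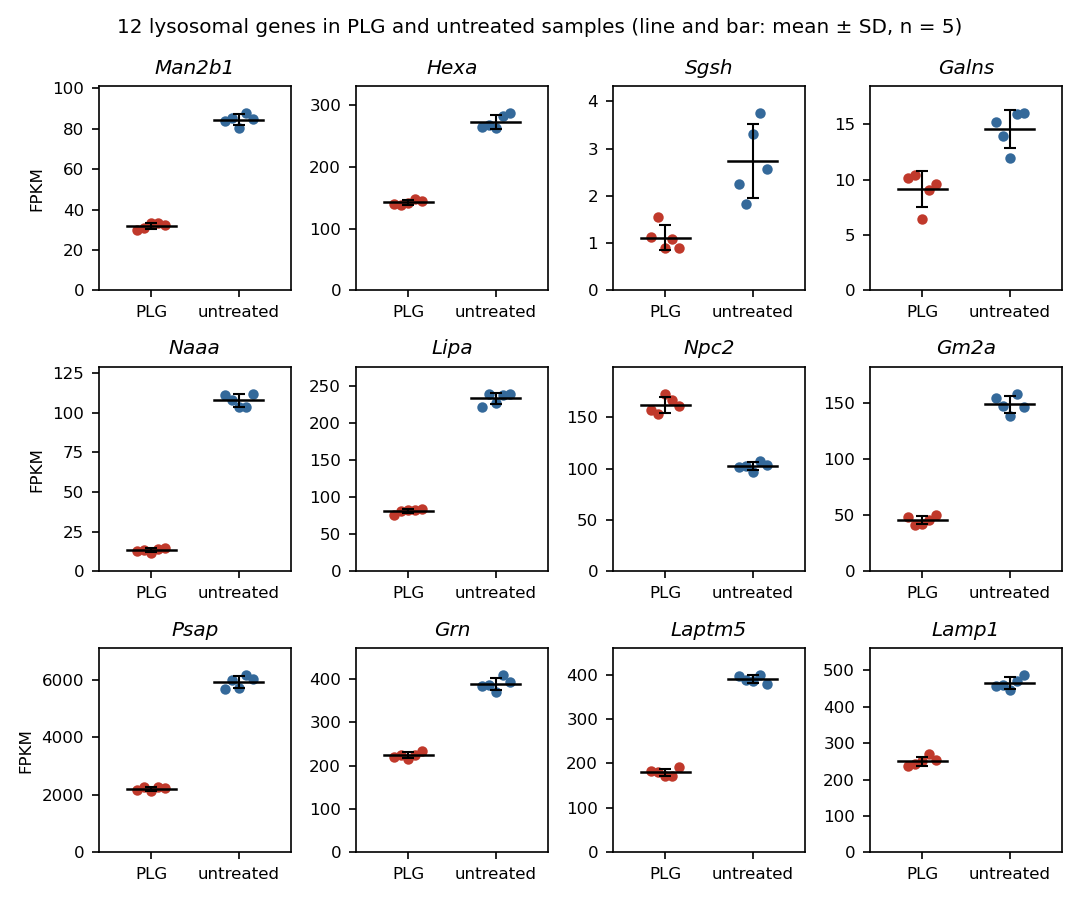
FPKM on linear axes from 0 for the 12 genes whose values are given in every sample, with the mean and SD of 5 PLG samples (red) beside 5 untreated samples (blue). Npc2 is higher with PLG and the other 11 genes are lower, without overlap of the groups in any of the 12.

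Of the other soluble proteins, Grn and Tpp1 fell and Aga did not pass. Grn (ENSMUSG00000034708.11, chromosome 11, 102430315 to 102437048), the precursor of the granulins, was at 220.4, 226, 216, 225 and 235 FPKM in the PLG samples, against 385, 387, 370.4, 410.3 and 393 FPKM in the untreated samples. The groups did not overlap (log2 fold change -0.79, SE 0.0424, limma adjusted p = 1.66e-09). Tpp1, a peptidase that trims peptides from their amino end, averaged 45.1 ± 2.77 FPKM with PLG and 76.3 ± 3.99 FPKM in untreated samples. Aga, the amidase that cleaves the link between glycan and asparagine, was at 9.98 ± 1.44 FPKM with PLG and 9.94 ± 1.05 FPKM in untreated samples (limma adjusted p = 0.990).

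Of the membrane protein genes, Laptm5 fell furthest. Laptm5 (ENSMUSG00000028581.17, chromosome 4, 130913125 to 130936141), a lysosomal membrane protein of blood cells, was at 182, 180.3, 172, 172 and 193 FPKM in the PLG samples, against 396, 387, 386, 399.7 and 378 FPKM in the untreated samples. Lamp1 (ENSMUSG00000031447.7, chromosome 8, 13159161 to 13175338), a heavily glycosylated protein of the lysosomal limiting membrane, was the most abundant of the class. It was at 238, 242, 252, 269 and 253 FPKM in the PLG samples, against 457, 459, 445, 471 and 488 FPKM in the untreated samples. Both genes were lower in every PLG sample than in any untreated sample, with log2 fold changes of -1.11 (SE 0.0435, limma adjusted p = 7.01e-11) and -0.88 (SE 0.0463, limma adjusted p = 1.32e-09).

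Lamp2, the companion of Lamp1 that also serves chaperone-mediated autophagy, fell less than most, to 57.3 ± 3.77 FPKM with PLG, against 73.6 ± 3.80 FPKM in untreated samples (log2 fold change -0.36). Cd68, a LAMP-family protein used as a marker of macrophages, averaged 243 ± 9.27 FPKM with PLG and 356 ± 27.9 FPKM in untreated samples (-0.54). Ctns, the cystine exporter, averaged 9.28 ± 0.876 FPKM with PLG and 17.9 ± 1.14 FPKM in untreated samples (-0.88). The calcium channel gene Mcoln1 (-0.46), Cln3 (-0.46) and Hgsnat, the acetyltransferase of heparan sulfate breakdown (-0.45), fell by similar amounts. Scarb2, the receptor that carries beta-glucocerebrosidase to lysosomes, was at 20.3 ± 2.41 FPKM with PLG and 21.0 ± 1.22 FPKM in untreated samples and did not pass (limma adjusted p = 0.564).

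Grouped by the material they degrade, most genes of each route were lower with PLG. Of 7 genes for heparan and dermatan sulfate 6 fell, with Idua the exception, and of 10 genes for gangliosides and other sphingolipids 9 fell, with Neu1 the exception. Of 4 genes for glycoprotein oligosaccharides 3 fell, with Aga the exception, and of the 3 genes for cholesterol release and export Lipa and Npc1 fell and Npc2 rose. All 4 genes that are mutated in human neuronal ceroid lipofuscinoses, Ppt1, Tpp1, Cln3 and Grn, fell. These groupings, some of only 3 or 4 genes, were made with the values known and describe the counts only. Over all genes tested 31.3% fell and 29.1% rose.

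Other genes of the lysosome and related genes were counted in 6 lists, without a test of any difference between a list and the 39 genes. Not every product in these lists need reside in the lysosome. Of 28 other hydrolase and cofactor genes tested, 18 fell and 7 rose (median log2 fold change -0.53). In either direction 89.3% of this list passed, against 60.4% of all genes tested, 31.3% as lower and 29.1% as higher. Pld4, an exonuclease of endolysosomes, fell to 11.7 ± 1.31 FPKM with PLG, against 93.0 ± 7.75 FPKM in untreated samples. Dpp7, a dipeptidyl peptidase, fell to 15.3 ± 1.27 FPKM with PLG, against 42.0 ± 2.90 FPKM in untreated samples. Smpdl3b, a membrane-bound relative of sphingomyelinase, rose to 56.0 ± 2.03 FPKM with PLG, against 6.10 ± 1.28 FPKM in untreated samples. Rnaset2a, an acid ribonuclease, rose to 6.66 ± 1.03 FPKM with PLG, against 0.534 ± 0.389 FPKM in untreated samples, although its reads may be divided with its near copy Rnaset2b. The peptidase gene Scpep1 was at 138 ± 6.15 FPKM with PLG and 137 ± 9.45 FPKM in untreated samples and did not pass.

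Of 27 other membrane protein genes tested, 17 fell and 6 rose (median -0.38). In either direction 85.2% of this list passed, against 60.4% of all genes tested, 31.3% as lower and 29.1% as higher. The cation channel genes Mcoln3 (8.04 ± 0.867 FPKM with PLG, 27.4 ± 2.07 FPKM in untreated samples) and Tpcn1 (2.14 ± 0.181 FPKM with PLG, 8.43 ± 0.922 FPKM in untreated samples) fell. Their relative Mcoln2 rose to 58.8 ± 3.50 FPKM with PLG, against 18.7 ± 3.28 FPKM in untreated samples, and so did Slc15a3, a transporter of histidine and peptides, to 197 ± 9.80 FPKM with PLG, against 71.0 ± 1.51 FPKM in untreated samples. Mfsd1 was at 75.2 ± 2.21 FPKM with PLG and 69.1 ± 5.17 FPKM in untreated samples and did not pass, but it passed as higher without untreated 2 (adjusted p = 0.0225) or untreated 5 (0.0293).

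Of 20 genes that sort and activate hydrolases, 10 fell and 3 rose (median -0.17). In either direction 65.0% of this list passed, against 60.4% of all genes tested, of which 31.3% fell and 29.1% rose. Igf2r, the large mannose 6-phosphate receptor, fell to 22.4 ± 1.23 FPKM with PLG, against 44.6 ± 2.73 FPKM in untreated samples. Sort1, the sorting receptor sortilin (11.2 ± 0.947 FPKM with PLG, 28.8 ± 2.68 FPKM in untreated samples), Nagpa, which uncovers the mannose 6-phosphate signal (18.5 ± 1.62 FPKM with PLG, 42.8 ± 5.14 FPKM in untreated samples), and Cln6 (5.26 ± 0.991 FPKM with PLG, 11.3 ± 1.73 FPKM in untreated samples) fell. Ap1s1, an adaptor subunit, was at 27.0 ± 3.64 FPKM with PLG and 27.3 ± 4.71 FPKM in untreated samples and did not pass.

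**Figure D4:**
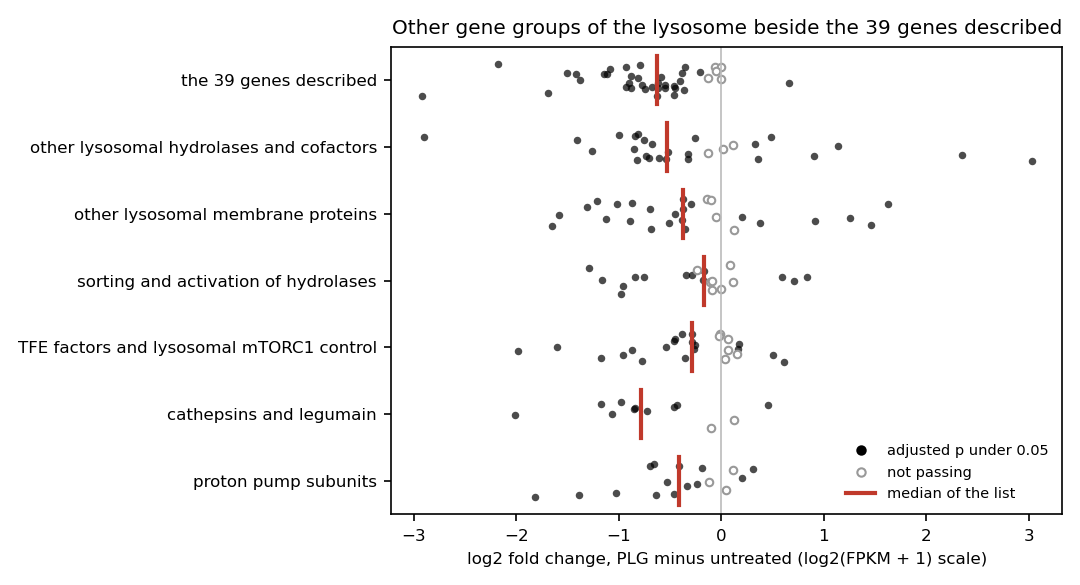
Log2 fold change, PLG minus untreated on the log2(FPKM + 1) scale, of each tested gene in the set of 39 and in 6 other lists of lysosomal and related genes, with the list medians as red bars. Filled points passed at a limma adjusted p under 0.05. The set of 39 has 1 filled point to the right of 0, while the other hydrolases have 7 and the other membrane proteins 6.

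Of 25 tested genes of the TFE transcription factors and of mTORC1 control at the lysosome, 15 fell and 4 rose (median -0.28). In this list 76.0% passed and the groups did not overlap for 48.0%, against 60.4% and 47.2% of all genes tested. The 4 that rose were Rptor, Mtor, Zkscan3 and Ppp3cb. The count was 2 without PLG 1, PLG 4 or PLG 5, where Zkscan3 and Ppp3cb did not pass. Tfeb, the factor known for driving lysosomal genes in other cells, fell to 3.14 ± 0.331 FPKM with PLG, against 11.6 ± 1.37 FPKM in untreated samples (log2 fold change -1.60, limma adjusted p = 2.12e-09). Tfec (4.72 ± 0.921 FPKM with PLG, 8.70 ± 0.953 FPKM in untreated samples) and Mitf (22.1 ± 0.739 FPKM with PLG, 26.8 ± 1.004 FPKM in untreated samples) fell, while Tfe3 was at 14.3 ± 0.756 FPKM with PLG and 14.5 ± 1.21 FPKM in untreated samples and did not pass. Tfec, Mitf and Tfe3 are given beside Tfeb as its family, and the call for Mitf was lost with samples scaled to a common sum (adjusted p = 0.0995). Fnip2, a partner of folliculin, fell to 24.5 ± 0.964 FPKM with PLG, against 99.9 ± 6.07 FPKM in untreated samples. The Rag GTPase genes Rragc (43.5 ± 1.17 FPKM with PLG, 85.6 ± 4.31 FPKM in untreated samples) and Rragd (1.85 ± 0.331 FPKM with PLG, 5.48 ± 1.22 FPKM in untreated samples) fell, and Lamtor5 was at 35.96 ± 4.29 FPKM with PLG and 34.3 ± 2.76 FPKM in untreated samples and did not pass.

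The 2 neighbouring groups with which the 39 genes share the organelle moved in the same main direction. Of 12 tested cathepsin and legumain genes 9 fell and 1 rose (median -0.78), and of 17 proton pump genes 12 fell and 2 rose (median -0.41). In either direction 83.3% and 82.4% of these lists passed. Over all genes tested 60.4% passed, 31.3% as lower and 29.1% as higher. Lgmn, the asparagine-specific protease legumain, fell to 60.5 ± 1.93 FPKM with PLG, against 247 ± 18.4 FPKM in untreated samples, and Atp6v0d2, a pump subunit, to 86.9 ± 3.84 FPKM with PLG, against 309 ± 14.4 FPKM in untreated samples. Also lower were Ctsa (84.9 FPKM with PLG, 178 FPKM in untreated samples) and, in the same order, Ctsl (55.1 and 109 FPKM) and Ctss (1490 and 2688 FPKM). So were the pump genes Atp6v0a1 (38.2 and 102 FPKM), Atp6v1b2 (86.2 and 177 FPKM) and Atp6v1c1 (24.2 and 39.6 FPKM). Atp6v1f, another subunit, was at 88.1 FPKM with PLG and 85.2 FPKM in untreated samples and did not pass. Ctsz, at 1280.0 ± 64.3 FPKM with PLG and 933 ± 22.7 FPKM in untreated samples, was the cathepsin gene that rose. Ctsc was at 61.2 ± 2.72 FPKM with PLG and 56.1 ± 4.002 FPKM in untreated samples and did not pass, but it passed as higher without untreated 2 (adjusted p = 0.0395) or untreated 5 (0.0410), which made 2 cathepsin genes that rose.

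As to the labelled cell type, all 8 macrophage markers were found at 1 FPKM or more, with a summed level of 2906 to 3004 FPKM in PLG samples and 5557 to 7125 FPKM in untreated samples, most of it from Lyz2. Of these markers 5 fell and 2 rose. The 2 were Cd14 (508 FPKM with PLG and 33.7 FPKM in untreated samples) and Adgre1 (177 FPKM with PLG and 80.0 FPKM in untreated samples). Cells grown in GM-CSF can also express dendritic cell markers. Of the 7 tested, Flt3, Zbtb46, Dpp4 and Ccr7 rose and Itgax, H2-Ab1 and Cd209a fell. The list summed to 912 to 1006 FPKM with PLG and 569 to 696 FPKM in untreated samples. The higher sum with PLG came from Ccr7, at 542 FPKM with PLG and 38.1 FPKM in untreated samples. Itgax (156 FPKM with PLG, 270 FPKM in untreated samples) and H2-Ab1 (248 FPKM with PLG, 313 FPKM in untreated samples) were lower. Neutrophil markers summed to 17.5 to 26.9 FPKM with PLG and 11.02 to 20.6 FPKM in untreated samples, stromal and endothelial markers to 5.945 to 7.28 FPKM with PLG and 1.565 to 3.54 FPKM in untreated samples, with Pdgfrb the 1 of them at 1 FPKM or more (5.18 FPKM with PLG and 0.253 FPKM in untreated samples), and lymphocyte and erythroid markers to at most 1.06 FPKM in any sample. The part of these shifts in the falls described above was not tested. The 3 repeat-like gene models took 0.13% to 5.92% of reads and were lowest in PLG 3, PLG 4 and untreated 2. Without those 3 libraries 33 of the 39 genes fell and 1 rose.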

How the data were processed

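Expression was deposited by the authors as FPKM, reads scaled by gene length and by the reads of each sample, for 16936 protein-coding genes in 10 samples. STAR 2.7.3a, cutadapt 2.10, featureCounts 2.0.0, FastQC 0.11.9, DESeq2 1.24.0 and the build GRCm38.p6 are listed in the submitters' processing notes, without roles. Not given in the sources used here are the strand setting, the annotation release and how reads with several matching genes were treated. Low FPKM values fall on whole multiples of 1 step in each sample, which gave 28426103 to 64214553 reads on the table's genes. With a tolerance of 0.1 read, 100% of the values tested were whole. Of these read numbers 49.2% to 51.8% per sample were odd and 66.5% to 67.8% were no multiple of 3, so the step was not taken 2 or 3 times too small.

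Genes with at least 1 FPKM in at least 5 samples (9997 genes) were compared as log2(FPKM + 1) by limma 3.58.1 under R 4.3.3. The model held treatment alone, with an intensity trend. P-values are two-sided, adjusted by Benjamini and Hochberg over all 9997 genes, with a threshold of 0.05. The fit was tested on simulated data. The 39 genes, the companion lists and the rules for naming genes were chosen with earlier results of these data known. The rules give values in every sample to the largest rise, the largest fall and the most abundant gene of each class, and name up to 4 genes of each companion list that passed and averaged at least 2 FPKM, with the most abundant gene that did not pass. Some other companion genes are named outside these rules, among them Ctsz as the cathepsin gene that rose. Promoters come from RefSeq windows on GRCm38.p6, printed for genes with values in every sample whose window holds the 7-base motif. Protein sequences were not used here. Alternatives covered pseudocounts, filters, scaling, moderation, a replicate block, left-out samples and, chosen after seeing the data, leaving out 3 libraries together, dropping 3 repeat-like gene models and a voom fit to the recovered reads.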

Additional observations from a re-analysis of the deposited data

Results flagged for a closer look

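Within each group of 5 samples, every gene of the 39 was examined for a single value far from the others, in 78 groups of values, and chance alone sets apart about 1 in 20 such groups. For 2 groups a value stood out. Ids was at 14.3 FPKM in untreated 3, above the other untreated samples at 11.7 to 12.3 FPKM, which places that library further from the PLG samples. Ctns was at 15.9 FPKM in untreated 2, below the other untreated samples at 18.0 to 18.6 FPKM and above all PLG samples. Both genes passed as lower without the library concerned.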

How the results depend on the processing

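Over 23 alternatives, 30 to 35 of the 39 genes fell and 1 rose, and the median log2 fold change of the 39 lay between -0.78 and -0.51. Over all tested genes 2185 to 3360 rose and 2133 to 3645 fell. The counts of 2185 and 2133 came with a filter of 5 FPKM and that of 3360 without a filter, which changed how many genes were tested. Of the 34 genes that passed, 32 kept their call under every alternative that tested them, and Gla and Glb1 lost it when samples were scaled to a common sum. The lowest count, 30, came with a filter of 5 FPKM, which left Sgsh, Arsb and Galc untested. With it 3 sulfatase genes were tested and called. Among the 5 genes that did not pass, Gaa passed as lower with quantile normalization (log2 fold change -0.19), and so did Idua (-0.19), also with the repeat-like gene models removed (-0.19). The near-zero values of 3 genes changed sign: Neu1 was at 0.0418 with a common sum and 0.0343 with median-of-ratios scaling, and Aga at -0.0405 with quantile normalization, -0.0370 with voom and -0.0585 without the repeat-like models. With 1 sample left out, Neu1 ranged from -0.0362 to 0.0274, Aga from -0.0636 to 0.0551 and Scarb2 from -0.104 to 0.00803. Companion genes that did not pass changed sign too, and the cause was not tested. With quantile normalization Scpep1 was at -0.249 and Atp6v1f at -0.180, both passing as lower, Mfsd1 at -0.0630, Ctsc at -0.0423 and Lamtor5 at -0.0586. Without the repeat-like models Scpep1 was at -0.0485, Atp6v1f at -0.0164 and Lamtor5 at -0.00338. Scpep1 was at -0.00308 with voom, and Lamtor5 at -0.0452 without the 3 libraries. Ap1s1 was at 0.0411 and Tfe3 at 0.0301 with a common sum, and at 0.0339 and 0.0227 with median-of-ratios scaling. With 1 sample left out, Ap1s1 ranged from -0.0638 to 0.0870, Tfe3 from -0.0642 to 0.0103 and Scpep1 from -0.00969 to 0.0475. Zkscan3 and Ppp3cb, which rose, lost the call under 13 and 8 alternatives. The count of TFE and mTORC1 genes that rose was 2 in place of 4 with the replicate block, a common sum, or the repeat-like models or the 3 libraries lowest in them left out. The count of proton pump genes that rose was 1 in place of 2 with a common sum or quantile normalization and 0 without the 3 libraries. Mfsd1 (0.163, adjusted p = 0.00426) and Ctsc (0.166, adjusted p = 0.00326) also passed as higher with median-of-ratios scaling, which made 2 cathepsin genes that rose in place of 1.

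No pairing of samples by replicate number was detected. Deviations of same-numbered samples from their group means correlated at -0.121 to 0.099, and 1 of 5 PLG samples correlated best with its own number. So few correlations cannot exclude a pairing. With the replicate block, 33 of the 39 genes fell and 1 rose, and over all genes 2797 rose and 2988 fell. Voom on the recovered reads, chosen after seeing the data, called 33 lower and 1 higher, with 2851 rising and 3357 falling over all genes. The planned edgeR and DESeq2 fits on recovered reads were not run.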

Other observations

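Several close relatives among the genes described and the companion lists moved apart. These pairs were noticed after the values were seen and were not tested as pairs. Smpdl3b rose, as given above, while Smpdl3a fell to 29.9 FPKM with PLG, against 54.9 FPKM in untreated samples. Laptm4b rose to 14.5 FPKM with PLG, against 5.48 FPKM in untreated samples, while Laptm5 and Laptm4a fell, the call for Laptm4a being lost with a common sum (adjusted p = 0.0753). M6pr, the small mannose 6-phosphate receptor, rose to 129 FPKM with PLG, against 78.4 FPKM in untreated samples, and its ratio to Igf2r was 5.02 to 6.61 in PLG samples and 1.67 to 1.91 in untreated samples. The acid phosphatase genes Acp5 and Acp2 did not move apart. Acp5, the tartrate-resistant form, rose to 65.8 FPKM with PLG, against 29.4 FPKM in untreated samples. Acp2 rose to 20.1 FPKM with PLG, against 15.8 FPKM in untreated samples.

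The motif TCACGTG occurred in a promoter window of 6 of 15 sorting genes with a window, 4 of 11 proton pump genes, 3 of 11 cathepsin and legumain genes, 6 of 24 TFE and mTORC1 genes, 4 of 25 other membrane protein genes and 2 of 21 other hydrolase genes. Among tested genes with a window it occurred in 9.28% of those that fell and 5.84% of those that rose, and in 7.4% of all of them.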
